A study of Homo sapiens with 6 samples.

Results

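Acute phase proteins are secreted proteins whose blood level changes in inflammation, and 9 of their genes were followed here: the serum amyloid A genes SAA1 and SAA2, the protease inhibitor genes SERPINA1 and SERPINA3, the metal- and haem-handling genes LCN2, CP and HP, and the matrix and pattern recognition genes PTX3 and TNFAIP6. The members were chosen by name, and all 9 were found among the 61541 genes listed in each file. RNA came from RCC4, a cell line established from a clear cell kidney cancer. There were 3 untreated replicates and 3 replicates kept for 24 h in IFNγ (interferon gamma, 1000 U/mL) plus TNF (tumour necrosis factor, 25 ng/mL). Each biological replicate pooled 3 flasks of a single line, and the 2 cytokines were given only together, so their separate effects cannot be told apart. In bulk RNA, fewer cells expressing a gene and less RNA per cell cannot be told apart either. Poly(A) RNA was read as native molecules by direct RNA nanopore sequencing, and the comparison asks how the cytokines change expression of these genes.

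In the liver, interleukin-6 acting through STAT3, interleukin-1 and TNF acting through NF-kappaB, and the C/EBP transcription factors raise transcription of most acute phase genes. Several are also made outside the liver, in epithelium, fibroblasts and myeloid cells, where SAA1, LCN2 and PTX3 are known as NF-kappaB targets. Serum amyloid A proteins bind lipoproteins and attract leukocytes, alpha-1-antitrypsin (SERPINA1) and alpha-1-antichymotrypsin (SERPINA3) inhibit neutrophil proteases, and lipocalin 2 (LCN2), ceruloplasmin (CP) and haptoglobin (HP) handle iron-siderophore complexes, copper and iron, and free haemoglobin. Pentraxin 3 (PTX3) binds microbes and complement, and TNFAIP6 encodes TSG-6, a hyaluronan-binding protein.

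SAA1 and SAA2 encode near-identical proteins from neighbouring genes, and their coding sequences are compared because the results turn on telling the copies apart. Both are 369 bases long in GENCODE 29, on GRCh38 (transcripts ENST00000356524 and ENST00000256733). Bases 211 to 369, which hold 10 of the differences and end with the stop codon, are printed 5′ to 3′ with the differing bases in capitals.
SAA1: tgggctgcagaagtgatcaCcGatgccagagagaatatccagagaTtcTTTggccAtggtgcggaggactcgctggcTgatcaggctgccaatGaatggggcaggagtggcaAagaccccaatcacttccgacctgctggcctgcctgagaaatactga
SAA2: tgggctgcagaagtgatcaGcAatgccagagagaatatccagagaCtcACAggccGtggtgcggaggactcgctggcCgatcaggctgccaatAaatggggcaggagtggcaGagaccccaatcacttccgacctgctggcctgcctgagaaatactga
The whole coding sequences differ at 11 of the 369 positions, an identity of 97.0%, and the longest stretch shared without a difference is 186 bases. Counted from the A of the start codon, the differences from SAA1 to SAA2 are G43A, C230G, G232A, T256C, T259A, T260C, T261A, A266G, T288C, G304A and A323G. Over 533 aligned bases of the full transcripts the identity was 95.1%. Direct RNA reads start at the 3′ end, the side on which 10 of the 11 coding differences lie. A read that does not reach the differing positions could be assigned to either copy or left uncounted, so the division of counts between SAA1 and SAA2 is uncertain. How many reads stop short of them was not tested, nor was it examined where the transcripts differ outside the coding sequence.

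RefSeq start sites on GRCh38.p14 were available for 5 of the 9 genes (LCN2, PTX3, TNFAIP6, SERPINA3 and, with 2 starts, SERPINA1). The 250 bases before the start are printed for 3 of them, chosen because both LCN2 and PTX3 hold a match to an NF-kappaB motif and to a C/EBP motif while their RNA levels differ, and because TNFAIP6 holds neither. Capitals mark the motif matches.
LCN2, chr9:128149203-128149452, plus strand: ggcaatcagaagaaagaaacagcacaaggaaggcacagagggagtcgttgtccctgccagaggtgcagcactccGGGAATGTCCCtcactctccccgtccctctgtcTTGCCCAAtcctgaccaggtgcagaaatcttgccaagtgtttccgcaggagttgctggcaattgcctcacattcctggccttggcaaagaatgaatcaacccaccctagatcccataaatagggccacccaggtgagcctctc
PTX3, chr3:157436600-157436849, plus strand: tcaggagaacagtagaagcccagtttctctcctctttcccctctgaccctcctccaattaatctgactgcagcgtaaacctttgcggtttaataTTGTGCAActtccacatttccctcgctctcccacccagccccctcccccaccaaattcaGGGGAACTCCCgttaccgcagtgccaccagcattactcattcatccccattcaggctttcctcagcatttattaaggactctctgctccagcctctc
TNFAIP6, chr2:151357342-151357591, plus strand: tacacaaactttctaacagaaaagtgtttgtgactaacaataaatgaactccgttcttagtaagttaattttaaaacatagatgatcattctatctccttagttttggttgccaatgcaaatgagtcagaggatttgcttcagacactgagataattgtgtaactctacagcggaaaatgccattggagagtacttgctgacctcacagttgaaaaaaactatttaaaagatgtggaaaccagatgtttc
Windows of 300 bases, from 250 before to 50 after the start, were searched on both strands. The loose NF-kappaB motif, GGG and CC with any 5 bases between them, was found in LCN2 from 176 bases upstream (GGGAATGTCC) and, on the other strand, from 175 and in PTX3 from 97 and 96 bases upstream, with overlapping matches on both strands. The C/EBP motif TTGCNNAA was found 143 bases upstream in LCN2 (TTGCCCAA) and 156 bases upstream in PTX3 (TTGTGCAA, which is the motif on the other strand). Of all 35116 windows in the table, 58.7% held the NF-kappaB motif, 10.5% the C/EBP motif and 4.31% both. SERPINA3 had a match to the loose NF-kappaB motif from 67 bases upstream and the first SERPINA1 window had one from base 32 after the start. The consensus kappaB site of immunoglobulin enhancers, the STAT site TTCNNNGAA, the interferon-response motif (GAAA repeated after any 2 bases) and the hypoxia-response core ACGTG were found in none of the 6 windows, against 0.191%, 7.66%, 3.57% and 21.4% of all windows. A match is a stretch of letters and says nothing about binding.

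Library totals ran from 3626000 to 4406296 counts. The limit that a count of 0 allows, 3 counts, was worth between 0.674 and 0.863 CPM, for counting error only. CPM is a count scaled for normalised library size. All 9 renal carcinoma cell markers were tested, with 1 higher and 3 lower in treated cells (5.58% and 2.55% of all genes tested). PAX8 was among the lower ones (log2 change -0.79, edgeR adjusted p = 0.0316), and CA9 did not pass the threshold. The summed level of the 9 ran from 6450 to 8005 CPM in untreated and from 8613 to 11760 CPM in treated libraries. Most of it was VIM, the 1 called higher, which averaged 4592 CPM in untreated and 7283 CPM in treated libraries. All 10 hepatocyte markers had 3 counts or fewer in every library, 7 of them 0 throughout (ALB, APOA2, APOB, APOC3, TTR, FGB and HNF4A), with a summed level of at most 0.515 CPM in untreated and 0.568 CPM in treated libraries. The 5 endothelial markers were at 0. Of the 10 leukocyte markers, 5 were at 0 in every library, among them PTPRC and CD68. For CD68, 81.6% of exonic bases are shared with other genes on the same strand, so its level cannot be read from these counts. CSF1R, the 1 leukocyte marker that could be tested, was lower in treated cells (log2 change -1.90, edgeR adjusted p = 0.0314). The summed level of the 10 leukocyte markers ran from 2.94 to 6.26 CPM in untreated and from 1.80 to 3.12 CPM in treated libraries. Of the 6 fibroblast markers, COL1A2, COL3A1, LUM and DCN were at 0, and COL1A1 and PDGFRB had counts in every library. PDGFRB was lower in treated cells (log2 change -1.91, edgeR adjusted p = 0.0049) and COL1A1 did not pass the threshold. Their summed level ran from 54.6 to 73.9 CPM in untreated and from 27.3 to 48.9 CPM in treated libraries. The part of other cell types in the results was not tested.

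The summed RNA level of the 9 genes was higher in treated than in untreated RCC4 cells, and most of the difference was SAA1. SAA1 rose 34.4-fold, SERPINA1 rose 2.18-fold, and no other member passed the threshold. TNFAIP6 and CP had lower means in treated cells, and both varied widely among the untreated libraries. LCN2, SAA2, SERPINA3 and HP had 3 counts or fewer in every library. Of the 9 genes, 4 had enough counts to be tested in the fit over all genes (SAA1, SERPINA1, PTX3 and TNFAIP6). With edgeR's quasi-likelihood test and Benjamini-Hochberg adjustment over all 10067 genes tested, called at 0.05, 2 of these were higher and 0 lower. Over all genes tested, 8.14% were called, 5.58% higher and 2.55% lower. At an unadjusted p under 0.05 in edgeR, 3 members were higher and 1 was lower, against 11.0% and 8.85% of all genes tested. DESeq2 called 2 members higher and 1 lower, against 6.48% and 3.14% of all genes. The tested members' median log2 fold change was 1.11, against -0.03 over all genes tested. With 4 members tested, and these the ones with counts, the share called says little about the group.

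Summed over the 9 genes, untreated replicates 1, 2 and 3 held 31.3, 46.6 and 62.9 CPM and treated replicates 1, 2 and 3 held 304.4, 282.5 and 249.04 CPM. The means were 46.9 ± 15.8 and 278.6 ± 27.9 CPM (n = 3 each, SD), and the groups did not overlap. SAA1 made up 18.3%, 12.2% and 14.7% of the members' counts in the untreated libraries and 86.9%, 82.0% and 86.1% in the treated ones. Without SAA1 the sum was 40.0 ± 14.04 CPM in untreated and 41.8 ± 8.21 CPM in treated libraries (n = 3 each, SD), a difference well within the spread between replicates. This sum joins opposite differences. The treated mean was higher for SERPINA1 (11.1 to 24.1 CPM) and PTX3 (4.87 to 10.3 CPM). It was lower for TNFAIP6 (20.8 to 5.16 CPM) and CP (3.24 to 1.74 CPM).

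**Figure D1:**
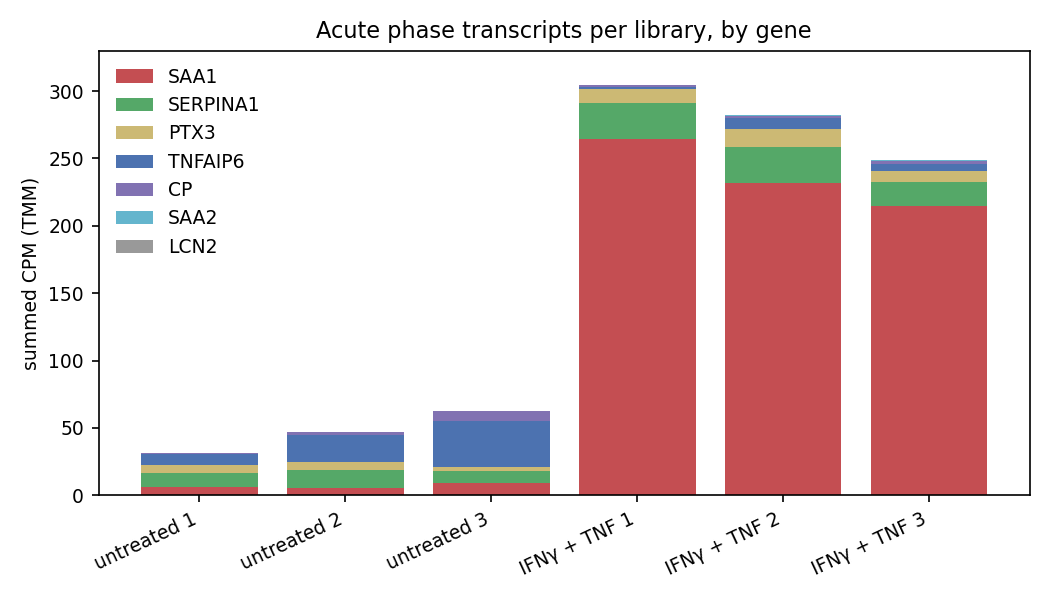
Stacked bars give the summed level of the acute phase genes in each library, in CPM with TMM-normalised library sizes, split by gene. The treated bars stand between 249.04 and 304.4 CPM and the untreated bars between 31.3 and 62.9 CPM, and SAA1 fills most of each treated bar.

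The serum amyloid A genes lie together on chromosome 11. SAA1 (ENSG00000173432; GRCh38, chromosome 11, 18266260 to 18269977, plus strand) encodes the main inflammation-induced form of the protein. It had 22, 22 and 41 counts in untreated replicates 1, 2 and 3 and 919, 1032 and 755 counts in treated replicates 1, 2 and 3. As CPM these were 5.74, 5.66 and 9.27 against 264.4, 231.8 and 214.4. Every treated library lay far above every untreated one, and replicates of a group were close together, within 1.64-fold in untreated and 1.23-fold in treated cells. The level went from 6.89 ± 2.06 to 236.9 ± 25.4 CPM (n = 3 each, SD), a log2 change of 5.09 (SE 0.26, edgeR adjusted p = 6.44e-06). The log2 fold change stayed between 4.97 and 5.36 when any 1 library was left out.

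SAA2 (ENSG00000134339; chromosome 11, 18239223 to 18248668, minus strand), the neighbouring inflammation-induced copy, had 0 counts in all 3 untreated libraries and in treated replicate 1, and 3 counts in each of treated replicates 2 and 3. All 6 values lie at or under the limit of 3 counts, so no fold change is given, and a rise of SAA2 was not detectable at this depth. Among the exonic bases of SAA2, 11.9% also belong to the read-through gene SAA2-SAA4 on the same strand, and reads touching exons of both would be left uncounted. SAA2-SAA4 itself had 0 counts in every library, and all of its exonic bases are shared with other genes. SAA4, the constitutively expressed member of the family, also had 0 counts throughout, with 75.6% of its exonic bases shared. SAA1 shares 4.80% of its bases with the 5S pseudogene RNA5SP334 and none of its last 500.

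The protease inhibitor genes lie in the serpin cluster of chromosome 14. SERPINA1 (ENSG00000197249; chromosome 14, 94376747 to 94390693, minus strand), which encodes the main plasma inhibitor of neutrophil elastase, had counts of 42, 52 and 39 in the untreated and 93, 120 and 65 in the treated replicates 1, 2 and 3. As CPM these were 10.9, 13.4 and 8.82 against 26.8, 27.0 and 18.5. The groups did not overlap, and the lowest library of each group was replicate 3. The mean went from 11.1 ± 2.28 to 24.1 ± 4.85 CPM (n = 3 each, SD), a log2 change of 1.12 (SE 0.27, edgeR adjusted p = 0.0331). The call was lost without untreated replicate 1 (edgeR adjusted p 0.0711), untreated replicate 2 (0.0703), treated replicate 1 (0.105) or treated replicate 2 (0.112), while the log2 fold change stayed between 0.97 and 1.29 in all 6 such fits.

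SERPINA3 (ENSG00000196136; chromosome 14, 94612384 to 94624055, plus strand), the inhibitor of cathepsin G, had 0 counts in all 6 libraries. Exons of the gene ENSG00000273259, which also had 0 counts, cover 31.7% of its exonic bases on the same strand and 89.0% of its last 500. Direct RNA reads start at the 3′ end, and reads touching exons of both genes are left uncounted, so its level cannot be read from these counts.

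The 3 genes of iron, copper and haemoglobin handling had few or no counts. LCN2 (ENSG00000148346; chromosome 9, 128149071 to 128153453), which sequesters bacterial siderophores and is a marker of kidney tubule injury, had 1 count in untreated replicate 1 and 0 in the other 5 libraries. HP (ENSG00000257017; chromosome 16, 72054505 to 72061055) had 0 counts in all 6. No exon of another gene on the same strand overlaps LCN2 or HP, so their counts could not be lost in that way. Both stood at or under the 3-count limit in untreated and treated cells.

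CP (ENSG00000047457; chromosome 3, 149162410 to 149221829, minus strand), the copper-carrying ferroxidase of plasma, had counts of 1, 6 and 35 in the untreated and 4, 8 and 8 in the treated replicates 1, 2 and 3. Untreated replicate 3 alone held most of the untreated reads, and the untreated libraries spanned 30.4-fold in CPM against 1.97-fold among the treated. The untreated mean was 3.24 ± 4.10 CPM and the treated mean 1.74 ± 0.563 CPM (n = 3 each, SD), so the difference was smaller than the spread between replicates. Without untreated replicate 3 the untreated mean was 0.902 CPM and the direction turned. CP did not pass the filter on low counts. In a fit without the filter, its log2 fold change was -0.87 (SE 0.56), with an edgeR adjusted p of 0.542.

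PTX3 and TNFAIP6 encode proteins that meet in the hyaluronan-rich matrix around cells. PTX3 (ENSG00000163661; chromosome 3, 157436850 to 157443633, plus strand) had counts of 23, 22 and 13 in the untreated and 35, 59 and 27 in the treated replicates 1, 2 and 3. As CPM these were 5.996, 5.66 and 2.94 against 10.1, 13.3 and 7.67. The groups did not overlap, but the lowest treated library was close to the highest untreated one. The means were 4.87 ± 1.68 and 10.3 ± 2.80 CPM (n = 3 each, SD), with a log2 change of 1.09 (SE 0.38, edgeR adjusted p = 0.132). PTX3 did not pass the threshold. Groups that do not overlap, with treated libraries higher, were found in 3 of the 4 tested members and in 13.9% of all genes tested (25.9% in either direction, 11.9% with treated libraries lower).

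TNFAIP6 (ENSG00000123610; chromosome 2, 151357592 to 151380046, plus strand) was named for its induction by TNF in fibroblasts. Here it had counts of 31, 79 and 150 in the untreated and 7, 36 and 19 in the treated replicates 1, 2 and 3. As CPM these were 8.08, 20.3 and 33.9 against 2.01, 8.09 and 5.40. Treated replicate 2 lay level with untreated replicate 1, so the groups overlapped. The means were 20.8 ± 12.9 and 5.16 ± 3.04 CPM (n = 3 each, SD), with a log2 change of -1.98 (SE 0.58, edgeR adjusted p = 0.0742), which missed the threshold. The value was negative in all 13 alternatives, between -2.42 and -1.43, and past the threshold in 4 of them, with adjusted p from 3.28e-06 to 0.228. DESeq2, at an adjusted p of 0.00609, was among those 4, as was the fit without untreated replicate 1 (edgeR adjusted p 0.0074). The smallest, an edgeR adjusted p of 3.28e-06, came from the fit without a filter on low counts. It calls for caution, since the SE of TNFAIP6 was 0.36 in that fit against 0.58 in the main fit.

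TNFAIP6 differed among replicates more than any other tested member, over 4.20-fold in untreated and 4.01-fold in treated cells. In each group replicate 1 was the lowest, at -1.36 on the log2 scale relative to its group mean in both. The mean exonic length of genes weighted by their counts, a property of each library, was 4238, 4275 and 4484 bases in untreated and 4204, 4376 and 4238 bases in treated replicates 1, 2 and 3. The libraries of each group ranked in the same order for TNFAIP6 and for this length. Its part in the result was not tested.

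**Figure D2:**
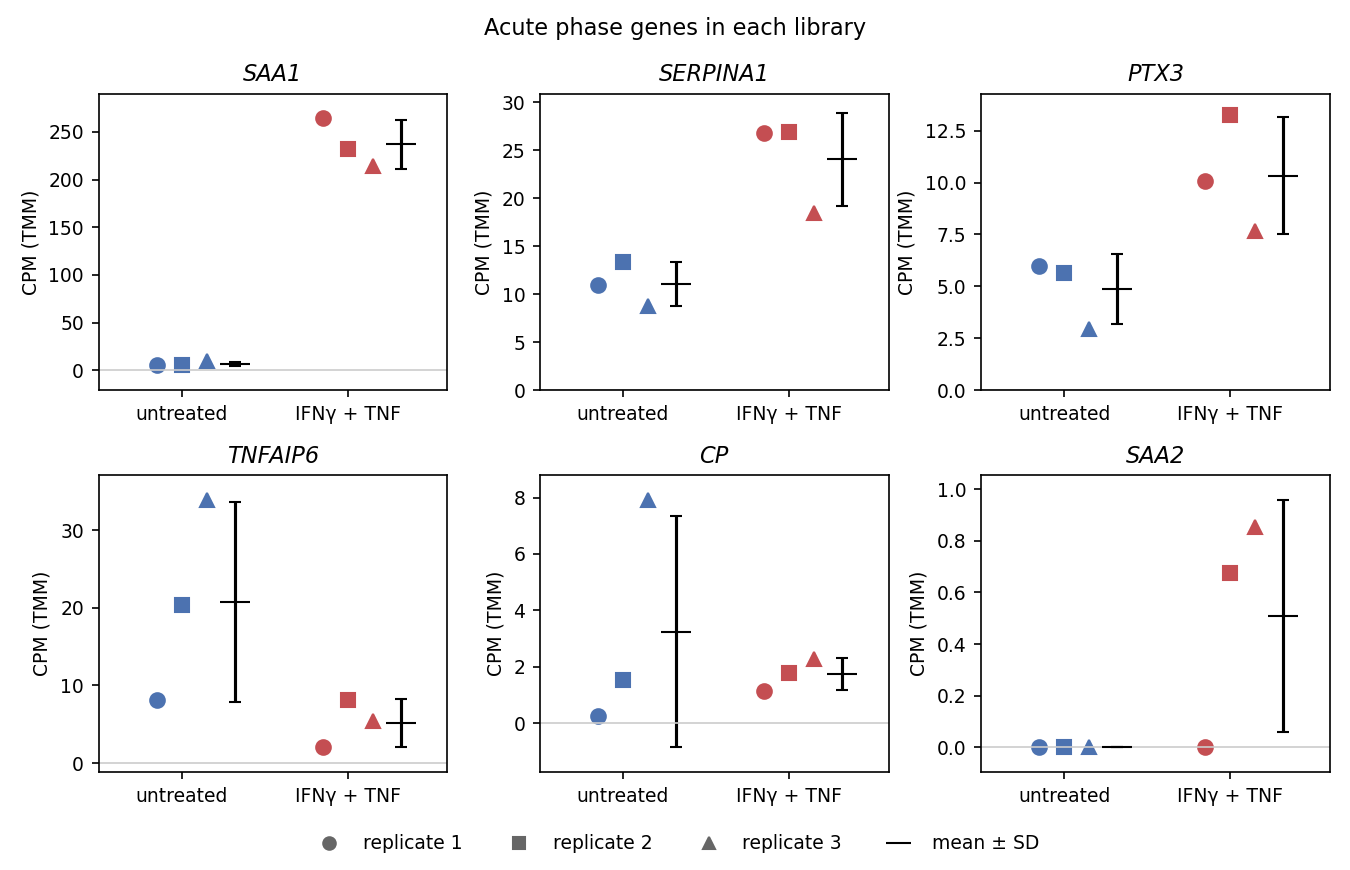
Points are single libraries, with the level in CPM (TMM-normalised library sizes) on a linear axis for each gene, and black bars give the mean ± SD of 3 libraries. SAA1, SERPINA1 and PTX3 have all treated points above all untreated points, TNFAIP6 and CP have a high untreated replicate 3, and SAA2 has counts in 2 treated libraries only.

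**Figure D3:**
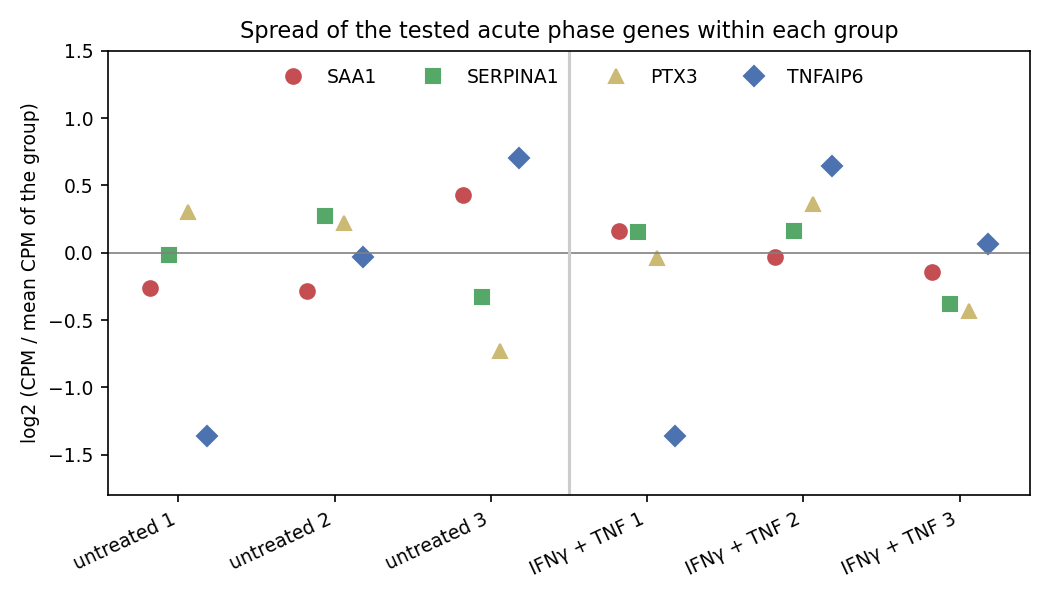
Each point is the log2 ratio of a library's CPM to the mean CPM of its group, for the 4 tested genes. TNFAIP6 sits at -1.36 in replicate 1 of both groups, and SAA1 stays between -0.28 and 0.43 in all 6 libraries.

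Levels were compared between genes as CPM per kilobase of exonic length, taken over all annotated exons of a gene. Each direct RNA read comes from a native molecule, so counts need not grow with length. CPM is then the more direct measure, and the division can shift the order of genes. In untreated cells TNFAIP6 stood first with 13.2 ± 8.195, followed by SAA1 with 6.49 ± 1.94, PTX3 with 2.58 ± 0.890, SERPINA1 with 2.25 ± 0.466 and CP with 0.458 ± 0.580 CPM per kilobase (n = 3 each, SD). TNFAIP6 and SAA1 overlapped across libraries, as did PTX3 and SERPINA1, so their order within each pair is not set. In treated cells SAA1 stood first at 223.0 ± 23.9 CPM per kilobase, with no overlap with the next. PTX3 followed with 5.48 ± 1.49, SERPINA1 with 4.91 ± 0.989 and TNFAIP6 with 3.28 ± 1.93 CPM per kilobase, and these 3 overlapped. CP and SAA2 were lower, at 0.246 ± 0.0796 and 0.227 ± 0.200 CPM per kilobase, and LCN2, SERPINA3 and HP were at 0. In CPM, SAA1 also stood first in treated cells, and TNFAIP6 also had the highest mean of the members in untreated cells. The order of the rest depended on the division by annotated exonic length. In CPM, SERPINA1 lay above PTX3 in every library of each group. In treated cells SERPINA1 also lay above TNFAIP6 (18.5 to 27.0 CPM against 2.01 to 8.09 CPM).

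Genes whose log2 CPM followed the members most closely were read off over the 6 libraries among the 6744 genes averaging 10 CPM or more, as a description of values that share libraries and groups. For SAA1 these were RNF213 (Pearson r 0.9998), UBE2L6 (0.9996), an enzyme of ISG15 conjugation, and ADAR (0.999), an RNA-editing enzyme. RNF213 went from 15.3 to 142.2 CPM, UBE2L6 from 74.7 to 1141 CPM and ADAR from 85.5 to 233.5 CPM. For SERPINA1 they were IKBKB (0.997), a kinase of the NF-kappaB pathway, PRR13 (0.994) and EHD4 (0.989). For TNFAIP6 they were FRMD6 (0.986), WARS2 (0.986) and ABHD10 (0.982), whose log2 fold changes were -0.75, -0.41 and -0.63.

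Other proteins that rise in the acute phase were mostly undetected. Of 24 such genes, 15 had 0 counts in all 6 libraries, among them CRP, the fibrinogen genes FGA, FGB and FGG, ORM1 and HAMP. A further 4 had 3 counts or fewer in every library, and 3 were tested. Of these, SERPING1 and C3 rose and 1 did not pass the threshold, against 5.58% higher and 2.55% lower over all genes tested. The median log2 fold change of the 3 was 3.72. For CFB, which had 0 counts throughout, 48.0% of exonic bases are shared with other genes on the same strand.

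SERPING1, which encodes the C1 inhibitor and belongs to the same serpin family as SERPINA1, had counts of 0, 2 and 10 in the untreated and 481, 507 and 884 in the treated replicates 1, 2 and 3. The log2 change was 7.37 (SE 0.64, edgeR adjusted p = 0.000131), and most of the untreated counts came from replicate 3. Without untreated replicate 3 the value was 9.17. The untreated counts then left, 0 and 2, lie under the limit of 3 counts, so the size of that value is not set. C3, the central complement component, had counts of 35, 65 and 277 in the untreated and 1252, 1593 and 1634 in the treated replicates, with a log2 change of 3.72 (SE 0.60, edgeR adjusted p = 0.00507). Without untreated replicate 3 the value for C3 was 4.92. LBP, the lipopolysaccharide-binding protein, had counts of 0, 1 and 7 in the untreated and 3, 10 and 15 in the treated replicates and was not tested, as it missed the filter on low counts.

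Of 11 negative acute phase genes, whose products fall in inflammation, 6 had 0 counts in all libraries and 9 had 3 or fewer in every library. The coagulation factor gene F12 was the 1 that could be tested. It had counts of 47, 48 and 64 in the untreated and 35, 22 and 31 in the treated replicates, with a log2 change of -0.73 (SE 0.32, edgeR adjusted p = 0.247). The edgeR and DESeq2 tests each called 0 genes of this list, where 1 was tested. Over all genes tested, edgeR called 8.14%, and DESeq2 called 6.48% higher and 3.14% lower. At an unadjusted p under 0.05 in edgeR, 1, F12, was lower (8.85% of all genes tested).

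Among 13 receptors and signal transducers of acute phase induction, 10 were tested, of which 2 rose and 8 did not pass the threshold, with a median log2 fold change of 0.36. SOCS3, the feedback inhibitor of interleukin-6 signalling, had counts of 45, 36 and 28 in the untreated and 467, 476 and 578 in the treated replicates. The log2 change was 3.89 (SE 0.28, edgeR adjusted p = 4.39e-05). TNFRSF1A, the main TNF receptor, went from 78.9 ± 6.73 to 160.8 ± 24.0 CPM (n = 3 each, SD), a log2 change of 1.03 (SE 0.18, edgeR adjusted p = 0.008). IL6ST, the shared receptor subunit gp130, had counts of 3, 9 and 43 in the untreated and 6, 34 and 16 in the treated replicates, with a log2 change of 0.11 (SE 0.79, edgeR adjusted p = 0.97), and its sign changed in 4 of 13 alternatives.

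Of 16 transcription factors and NF-kappaB regulators linked to these promoters, 14 were tested (median log2 fold change 0.90). Of the 14, 6 were higher, 1 was lower and 7 did not pass the threshold, against 5.58% higher and 2.55% lower over all genes tested. The liver factor HNF4A had 0 counts in all libraries. CEBPB, a C/EBP factor of the acute phase response, went from 70.5 ± 5.59 to 414.4 ± 145.9 CPM (n = 3 each, SD), a log2 change of 2.55 (SE 0.26, edgeR adjusted p = 0.000353). Each treated library lay far above the untreated ones. STAT3, the main transducer of interleukin-6, rose from 47.6 ± 6.68 to 107.1 ± 6.20 CPM, a log2 change of 1.17 (SE 0.18, edgeR adjusted p = 0.00417). RELA, the activating subunit of NF-kappaB, its inhibitor NFKBIA, and BCL3, a nuclear partner of NF-kappaB, rose by 1.63, 1.63 and 1.44 on the log2 scale, at adjusted p of 0.00301, 0.00226 and 0.00326 in edgeR.

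CEBPD had counts of 85, 113 and 299 in the untreated and 385, 376 and 467 in the treated replicates, with a log2 change of 1.45 (SE 0.39, edgeR adjusted p = 0.0553). It passed the threshold in 7 of 13 alternatives, and without untreated replicate 3 its log2 fold change was 2.09. NFKBIZ, the NF-kappaB cofactor needed for LCN2 induction, had counts of 14, 16 and 64 in the untreated and 28, 63 and 25 in the treated replicates. The log2 change was 0.39 (SE 0.54, edgeR adjusted p = 0.8), and the groups overlapped. Without 1 library the value ran from 0.076, without treated replicate 2, to 1.32, without untreated replicate 3 (edgeR adjusted p = 0.0569), and it was 0.093 and 0.11 without untreated replicates 1 and 2.

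**Figure D4:**
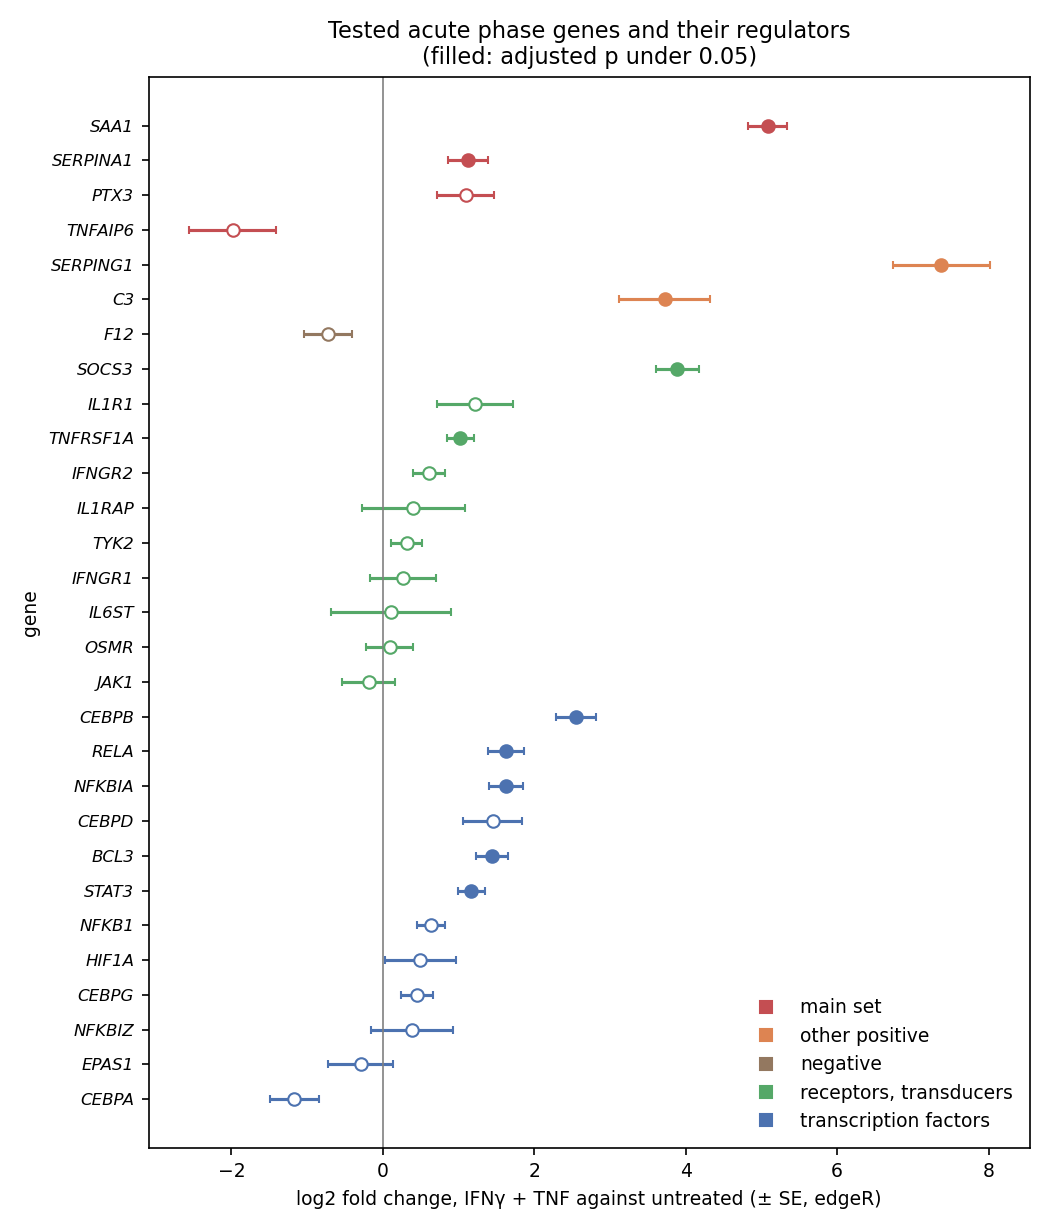
Points give the log2 fold change of treated against untreated cells in edgeR, with bars of ± 1 SE, for each tested gene of the main set of 9 and of the lists of other positive and negative acute phase proteins, receptors and transducers, and transcription factors, leaving out the tested genes that are not reported here. Filled points passed an adjusted p under 0.05. SAA1 stands at 5.09 among the main set, below SERPING1 at 7.37, and TNFAIP6 at -1.98 is open.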

How the data were processed

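Direct RNA sequencing libraries of 3 untreated and 3 IFNγ plus TNF treated RCC4 cultures were compared, from 500 ng of poly(A) RNA and 72 h of sequencing each, using reads of quality above 7, per the labels' protocols and design text. What the authors deposited are counts of reads for each gene, made with featureCounts 2.0.1 in long-read mode (exons of Ensembl 105 on GRCh38, strand-specific, without the options that count multi-mapping or multi-overlapping reads), per the file headers. The submitters' processing notes name minimap2 2.24, SAMtools 1.16 and featureCounts 2.0.0. The word dmso stands in alignment names of both groups in the headers, while titles give untreated or treated, and titles set the groups. Symbols were matched for 61369 of 61541 genes.

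All genes were fitted together with edgeR 4.0.16 (R 4.3.3), with the quasi-likelihood F test, TMM normalisation, filterByExpr, group as the sole term and Benjamini-Hochberg adjustment over 10067 genes at a threshold of 0.05. CPM used TMM-normalised library sizes. Each SE was derived from the log2 fold change and its F statistic. The script was tested on simulated data. Same-strand exon overlap came from the exon coordinates of the files, and SAA1 and SAA2 were aligned with Biopython 1.88. Proteins were not analysed here. DESeq2 1.42.0, limma 3.58.1 (voom), other scalings and filters, the replicate block and the removal of each library were the alternatives. The members, lists and tests were chosen with earlier results of these data known. Named genes were the 9 members, a set of fixed regulators, up to 5 called genes per list and direction, and the 3 genes most correlated with each of the 3 most abundant tested members. LBP, F12 and the genes named as undetected fall outside that rule and were named after their values were seen. Some genes that the rule or the lists include are not reported here by name, though the counts per list include them.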

Additional observations from a re-analysis of the deposited data

How the results depend on the processing

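SAA1 passed the threshold in all 13 alternatives, and no tested member changed sign in any. Whether replicate numbers pair the samples was not settled. Correlations of deviations were 0.651, -0.0037 and 0.374 between same-numbered libraries and ran from -0.674 to 0.413 between differently numbered ones. The replicate block gave 907 genes higher and 606 lower over all genes against 562 and 257, and called 3 members higher and 1 lower, with PTX3 at an adjusted p of 0.0295 and TNFAIP6 at 3.3e-05. With every gene of at least 1 count tested, 849 genes were higher and 479 lower. Library totals alone gave 485 and 364, with a median log2 fold change of -0.13 over all genes against -0.03. Leaving out 1 library gave from 358 to 733 genes higher and from 96 to 445 lower, the fewest higher without untreated replicate 2 (358) and treated replicate 3 (359). Members called higher ran from 1 to 2 and lower from 0 to 1. TNFAIP6 was the 1 member called lower with every gene tested, with DESeq2, with the block and without untreated replicate 1. Transcription factors called lower numbered 2 with library totals alone and 2 with the block, and from 0 to 2 without 1 library. Partners of the member proteins called higher numbered 1 with every gene tested and 1 with the block, and from 0 to 1 without 1 library. Partners called lower numbered 1 with DESeq2 size factors, 1 with the stricter filter and 1 with DESeq2, 2 with every gene tested and 2 with the block, and from 0 to 1 without 1 library. Chromosome neighbours called lower numbered 1 with every gene tested, and from 0 to 1 without 1 library. The log2 fold change of IL6ST was -0.021 with library totals alone, and in fits without 1 library it ran from -0.40 to 1.58, below 0 without untreated replicate 1 (-0.34), untreated replicate 2 (-0.18) and treated replicate 2 (-0.40). The cause of these changes was not tested. The planned protein alignments were not run. Depth limits LCN2, HP and SAA2 to statements about 3 counts or fewer.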

Other observations

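The proteins that bind or are cut by the products of the acute phase genes were looked at as a list of 25. In edgeR, 8 were tested and 0 called, with a median log2 fold change of -0.31. At an unadjusted p under 0.05 in edgeR, 1 was higher and 2 were lower (11.0% and 8.85% of all genes tested), and DESeq2 called 0 higher and 1 lower (6.48% and 3.14% of all genes). Genes at 0 in every library included the receptors LRP2, CD163 and FPR2, the protease genes ELANE and CTSG, the iron exporter SLC40A1 and HAS2, whose product makes hyaluronan. ITIH1 and ITIH2, whose heavy chains TSG-6 moves onto hyaluronan, were also at 0. The hyaluronan receptor CD44 averaged 317.4 ± 84.0 CPM without and 344.9 ± 45.6 CPM with cytokines (n = 3 each, SD), a log2 change of 0.12 (SE 0.22). LRP1, the receptor that clears serpin and protease complexes, had 57.8 ± 21.7 and 27.2 ± 4.87 CPM (n = 3 each, SD), a log2 change of -1.08 (SE 0.29, edgeR adjusted p = 0.0537). VCAN, the hyaluronan-binding proteoglycan versican, had counts of 100, 175 and 419 in the untreated and 62, 161 and 66 in the treated replicates, with an edgeR adjusted p of 0.193. As in TNFAIP6, replicate 1 was the lowest of each group. These genes were picked for mention after their values were seen.

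Around the members on their chromosomes, 22 genes were listed, and 11 had 0 counts in all libraries. In edgeR, 6 were tested and 0 were called, against 8.14% of all genes tested. At an unadjusted p under 0.05 in edgeR, 1 was higher (11.0% of all genes tested), and DESeq2 called 0 (6.48% higher and 3.14% lower over all genes). In the serpin cluster next to SERPINA1, SERPINA4, SERPINA5, SERPINA10, SERPINA11 and SERPINA12 had 0 counts, and SERPINA6 had counts of 10, 14 and 12 in the untreated and 7, 5 and 8 in the treated replicates. HPR, the paralog next to HP, had 0 counts in every library, while TXNL4B, which overlaps HP on the other strand, had between 73 and 122. HPS3, on the other strand from CP, had counts of 36, 53 and 100 in the untreated and 48, 148 and 81 in the treated replicates, a log2 change of 0.62 (SE 0.40, edgeR adjusted p = 0.475). VEPH1, which contains PTX3 on the other strand, had counts of 11, 9 and 62 in the untreated and 1, 5 and 1 in the treated replicates. It missed the filter on low counts and was called lower in the fit without a filter, at an edgeR adjusted p of 1.42e-06. That p calls for caution, since most untreated counts came from replicate 3 and the untreated libraries spanned 6.05-fold in CPM. The SE of TNFAIP6, also variable among replicates, was 0.36 in that fit against 0.58 in the main fit, while that of SAA1 was 0.29 against 0.26. PTX3 had more counts in every treated library than in any untreated one.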
